A study of Drosophila melanogaster with 2 samples.

Results

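The 9 genes described here are the DNA replication licensing genes dpa, Mcm2, Mcm3, Mcm5, Mcm6, Mcm7, Cdc7, PCNA and Orc2, out of 13945 protein-coding genes on the 6 main chromosome arms. They were chosen from measured values as well as by pathway, with it known that some of them have strong replicate peaks that the pooled list lacks. Their peak signals and ranks are therefore given as a description, with no test. The data are chromatin immunoprecipitation followed by sequencing (ChIP-seq) of the nuclear receptor Hr96 in whole adult Drosophila melanogaster females of the Hr96-GFP strain, of unknown age. Both samples come from a stable transgenic line in which GFP is fused to the C-terminus of Hr96, and an antibody to GFP was used, although the antibody field of the labels names Hr96. The 2 samples, biological replicates 1 and 3, form a single group. There is no other condition and there are no flies without the fusion, so signal unrelated to Hr96 and Hr96 binding cannot be told apart. The chromatin mixes all tissues, so a strong site in few cells and a weak site in many cells cannot be told apart either.

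Licensing prepares origins of replication before S phase. The origin recognition complex, to which Orc2 belongs, marks the origin, and with loading factors it places the ring of MCM proteins (Mcm2, Mcm3, dpa, Mcm5, Mcm6 and Mcm7, where dpa is the fly Mcm4) on DNA as an inactive helicase. The kinase Cdc7 phosphorylates the ring at the start of S phase, and PCNA is the sliding clamp that holds DNA polymerases on the template. In flies many of these genes are known targets of E2F, the cell cycle transcription factor, and of DREF, a promoter factor that binds the DNA replication-related element (DRE), first described at the PCNA gene and the gene of the DNA polymerase alpha catalytic subunit. In adult females the ovary holds many cycling and endocycling cells, which need these proteins.

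The promoters below show where the words searched for lie relative to the start. All are the plus strand of dm6 from the RefSeq copy of the genome, which is the coding strand of these genes, written 5′ to 3′ in lower case with matches in capitals. The DRE was TATCGATA, its own reverse complement. The shortened DRE was TATCGAT on either strand, read as ATCGATA where it lay on the minus strand, and every full DRE also counts as a shortened one. The E2F words were TTTCCCGC, TTTCGCGC, TTTGCCGC and TTTGGCGC on either strand. Mcm5 and Mcm2 are shown because they are the members with a final promoter peak, Cdc7 because both replicates had a strong peak there that the pooled list lacked, Orc2 because it holds 2 DREs, and Mcm3 and Mcm6 because an E2F word lay at a start with no peak. In the stretches of 250 bases the transcription start site (TSS) follows the first 220 bases. In the final list the Mcm5 summit is base 55 and the Mcm2 summit base 131, and the replicate 1 summit of Cdc7 is base 246. The Mcm2 stretch holds none of these words and has no capitals. The stretches of Mcm2 and Mcm5 end before their E2F words, which lie at +36 to +43 in Mcm2 and +32 to +39 in Mcm5.
Mcm5, chr3R:10788304-10788553: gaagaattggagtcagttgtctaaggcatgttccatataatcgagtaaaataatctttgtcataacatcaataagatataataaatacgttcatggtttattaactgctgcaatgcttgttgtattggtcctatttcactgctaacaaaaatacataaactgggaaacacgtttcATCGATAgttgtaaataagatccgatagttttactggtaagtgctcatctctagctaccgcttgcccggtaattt
Mcm2, chr3R:8264750-8264999: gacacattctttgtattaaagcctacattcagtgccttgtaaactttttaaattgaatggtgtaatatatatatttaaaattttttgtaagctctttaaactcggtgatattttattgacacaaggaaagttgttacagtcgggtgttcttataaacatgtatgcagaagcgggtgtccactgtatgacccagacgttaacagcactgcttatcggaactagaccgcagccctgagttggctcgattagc
Cdc7, chrX:6654321-6654570: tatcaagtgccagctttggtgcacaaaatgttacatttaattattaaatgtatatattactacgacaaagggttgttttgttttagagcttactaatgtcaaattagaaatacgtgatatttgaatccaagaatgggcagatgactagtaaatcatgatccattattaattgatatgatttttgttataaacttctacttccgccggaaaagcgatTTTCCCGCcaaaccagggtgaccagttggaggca
Cdc7, second start, chrX:6654664-6654693: gaactgaaccATCGATAttatcagtagcgc
Orc2, chr3R:13964665-13964914: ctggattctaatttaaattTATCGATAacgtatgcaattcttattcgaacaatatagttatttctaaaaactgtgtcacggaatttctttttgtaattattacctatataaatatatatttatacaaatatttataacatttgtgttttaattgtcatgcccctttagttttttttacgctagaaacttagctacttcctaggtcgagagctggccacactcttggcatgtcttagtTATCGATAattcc
Mcm3, chrX:5323825-5323884: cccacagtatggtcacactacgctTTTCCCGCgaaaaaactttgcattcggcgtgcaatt
Mcm6, chrX:6674357-6674416: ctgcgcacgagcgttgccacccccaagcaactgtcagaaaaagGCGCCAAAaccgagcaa

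The 4 lists of peaks on dm6 were compared. Replicate 1 and replicate 3 are represented by 30000 regions each, peaks and background together. The pooled list, made from both, has 30000 too, and the final list holds the 3607 peaks that the authors kept by the irreproducible discovery rate (IDR), all of which are also pooled peaks. Each peak has a summit and a signal, the strength the authors' caller gave it. The scale differs between lists, so strength was compared by rank within a list, where rank 1 is the strongest. The median signal was 102.6 in the IDR list, 27.9 in the pooled list, 19.2 in replicate 1 and 12.9 in replicate 3. Each list also gives the −log10 of a q-value, whose highest value was 3.47 in the IDR and pooled lists, 3.41 in replicate 1 and 3.50 in replicate 3. The depth behind these values is unknown, since no read totals were used here. Each list gives 1 value per site, so no error can be attached to a signal. The spread between replicates is shown by the ranks of both.

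Within 500 bp of a TSS, Mcm5 and Mcm2 had a peak in the IDR list, PCNA had only a weak pooled peak, and the other 6 genes had no pooled peak. dpa had the strongest replicate peaks of the 9 genes, and it was absent from the pooled and IDR lists near its start. Cdc7 showed the same combination at lower ranks. Orc2 and Mcm7 had a single weak summit in 1 replicate, and Mcm3 and Mcm6 had no summit in any list. The plot of ranks by list shows all of these values.

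**Figure D1:**
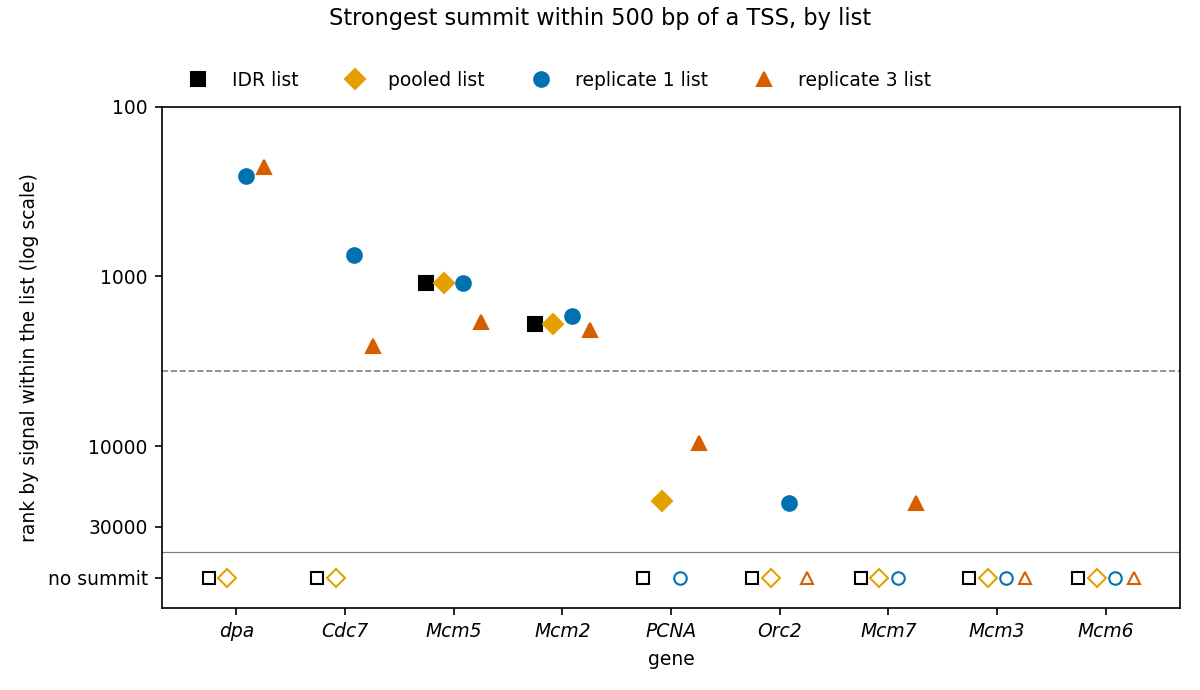
Rank by signal of the strongest summit within 500 bp of a TSS of each licensing gene (vertical log axis, strongest at the top) in the IDR, pooled, replicate 1 and replicate 3 lists. Open symbols in the bottom row mean that the list has no summit there, and the dashed line marks rank 3607, the length of the IDR list. The 2 dpa points, ranks 257 and 227, are the highest in the plot and have no pooled or IDR partner.

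Among the origin proteins, Orc2 (FBgn0015270, chromosome 3R, 13964885 to 13967075, plus strand) encodes a subunit of the origin recognition complex. Its promoter had a single summit, in replicate 1 at 13964645, 240 bp before the TSS, with a signal of 16.7 and rank 21734. That signal is below the median of the replicate 1 list, and its −log10 q was 0.22. The nearest summit was 2178 bp from the TSS in replicate 3, 1006 bp in the pooled list and 18814 bp in the IDR list. Inside the gene, replicate 1 alone had a further summit in coding sequence at 13966464, with a signal of 34.8 and rank 4023.

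The 6 MCM genes covered the whole range. dpa (FBgn0015929, chromosome 2R, 7496702 to 7500145, minus strand) encodes the Mcm4 subunit and has TSSs at 7499877 and 7500145, 268 bp apart. In replicate 1 its summit lay at 7499971 with a signal of 245.1 and rank 257, and in replicate 3 at 7499983 with a signal of 124.2 and rank 227. The summits were 12 bp apart, both in the 5′ untranslated region (UTR) of dpa and between its TSSs, 94 and 106 bp before the inner one. Each −log10 q, 3.41 in replicate 1 and 3.50 in replicate 3, was the highest its list gives. Many peaks share these ceilings, down to at least rank 1265 in replicate 1 and rank 1324 in replicate 3. Of the 5438 protein-coding genes with a replicate 1 summit within 500 bp, 279 had a stronger one than dpa, and of the 6168 genes with a replicate 3 summit 231 did. The replicate 1 peak was 107 bp wide, against 400 bp for 98.8% of the peaks of that list, and the replicate 3 peak had the usual 420 bp of its list. Most of these peaks are weak. In the pooled list 98.7% of peaks had the usual 416 bp, against 89.1% of the stronger peaks kept in the IDR list.

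The pooled list had no summit within 500 bp of either dpa TSS. Its nearest summit was 1696 bp away at 7498181, in coding sequence of dpa, with a signal of 28.5 and rank 14140. The nearest IDR summit was 3512 bp away, in the 5′ UTR of CG1620. The outer dpa TSS lies 2 bp from a TSS of didum, a myosin V gene on the opposite strand, so the replicate peaks lie within 500 bp of both genes and cannot be assigned to 1 of them.

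Mcm5 (FBgn0017577, chromosome 3R, 10788524 to 10791150, plus strand) had the highest IDR rank of the 9 genes. The IDR and pooled lists place its summit at 10788358 in intergenic sequence, 166 bp before the TSS, in a peak from 10788150 to 10788565. Its signal of 148.5, rank 1099, is above the median of the IDR list. Its −log10 q of 3.47 is the highest that list gives, a ceiling shared by peaks down to at least rank 1396. Replicate 1 had a summit at 10788408 with a signal of 99.1 and rank 1094, and replicate 3 had one 14 bp away with a signal of 42.8 and rank 1855. Both replicates thus held this site among their 3607 strongest, nearer to the TSS than the pooled summit. A TSS of Art1, an arginine methyltransferase gene on the opposite strand, lies 298 bp from that of Mcm5 and 132 bp from the IDR summit.

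Mcm2 (FBgn0014861, chromosome 3R, 8264970 to 8267924, plus strand) had an IDR and pooled summit at 8264880, 90 bp before the TSS, with a signal of 98.7 and rank 1895. That signal is slightly below the median of the IDR list. Replicate 1 had a summit 2 bp from it with a signal of 69.7 and rank 1707. Replicate 3 placed a weaker summit exactly there, with a signal of 23.0, rank 4967 and a −log10 q of 0.66, and a stronger one at 8264595, 375 bp before the TSS, with a signal of 40.2 and rank 2064. The matching pair at Mcm2 was therefore not among the 3607 strongest of both lists, because of replicate 3. The TSS of RPA1, the largest subunit of the single-strand binding protein RPA, lies 519 bp away on the opposite strand. The stronger replicate 3 summit is 144 bp from the RPA1 TSS and the shared summit 429 bp, so 1 peak counts for both replication genes.

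Mcm7 (FBgn0020633, chromosome 3L, 8891596 to 8894310, plus strand) had only a replicate 3 summit 217 bp before the TSS, with a signal of 10.99, rank 21655 and a −log10 q of 0.12. The nearest IDR summit to its TSS was 48998 bp away. Mcm6 (FBgn0025815, chromosome X, 6674387 to 6677176, plus strand) had no summit within 500 bp in any list, and its nearest summits were 12065 bp away in replicate 3 and 19821 bp away in replicate 1.

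Mcm3 (FBgn0284442, chromosome X, 5323855 to 5326738, plus strand) had none within 500 bp either, but a strong site lay next to it. At 5322704, 1151 bp before the Mcm3 TSS, the IDR list had a summit with a signal of 323.2 and rank 299, and replicate 1 one with a signal of 276.0 and rank 191 at the same base. In replicate 3 the summit nearest to the Mcm3 TSS was 5705 bp away. This summit is beside the start of the RNA-binding protein gene Rnp4F, on the opposite strand at 5322696, and was not counted for Mcm3 even with a window of 1000 bp.

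Cdc7 (FBgn0028360, chromosome X, 6654541 to 6659709, plus strand), the kinase gene, has TSSs at 6654541 and 6654679. In replicate 1 a summit at 6654566 had a signal of 131.3 and rank 743, and in replicate 3 a summit at 6654592 had a signal of 35.3 and rank 2571. They were 26 bp apart in the 5′ UTR, 25 and 51 bp after the outer TSS, with −log10 q of 3.41 in replicate 1 and 1.67 in replicate 3. The site held a far lower rank in replicate 3 than in replicate 1, yet stayed among the 3607 strongest of both. A TSS of CG3226 lies 293 bp away on the opposite strand and shares the site.

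No pooled summit lay within 500 bp of a Cdc7 TSS. The nearest, also an IDR summit, was inside a Cdc7 intron at 6656283, 1604 bp after the inner TSS, with a signal of 259.3 and rank 465. Replicate 3 had a summit at the same base with a signal of 113.2 and rank 278, and replicate 1 had none in the gene beyond the promoter. So the Cdc7 site in the IDR list had a summit in replicate 3 and none in replicate 1, and the Cdc7 site held by both replicates was not in the pooled list. This intronic summit was also the IDR summit nearest to Mcm6, at 18104 bp.

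PCNA (FBgn0005655, chromosome 2R, 20261754 to 20262883, minus strand), the sliding clamp gene, has TSSs 73 bp apart. The pooled list had a summit 33 bp before its outer TSS with a signal of 24.6, rank 21067 and a −log10 q of 0.19, and replicate 3 one 6 bp before it with a signal of 15.8, rank 9557 and a −log10 q of 0.22. The pooled signal is below the median of its list and the replicate 3 signal above that of its list. Replicate 1 and the IDR list had no summit within 500 bp. The nearest IDR summit was 1101 bp upstream, in the 5′ UTR of the ribosomal protein gene RpS18, with a signal of 190.8 and rank 768, and the replicate 1 summit there had rank 662. The TSS of plu, a regulator of the embryonic cell cycle, lies between them, 801 bp from PCNA.

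By replicate ranks the order was dpa, then Cdc7, Mcm5 and Mcm2, with the other 5 genes far below or without a summit. Both dpa ranks were higher than every promoter rank of the other 8 genes. Cdc7, at 743 in replicate 1 and 2571 in replicate 3, and Mcm5, at 1094 in replicate 1 and 1855 in replicate 3, change places between the replicates, so their order rests on which replicate is read. Mcm2, at 1707 in replicate 1 and 2064 or 4967 in replicate 3, was behind Mcm5 in both replicates. It was behind Cdc7 in replicate 1, and its stronger summit was ahead of Cdc7 in replicate 3.

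**Figure D2:**
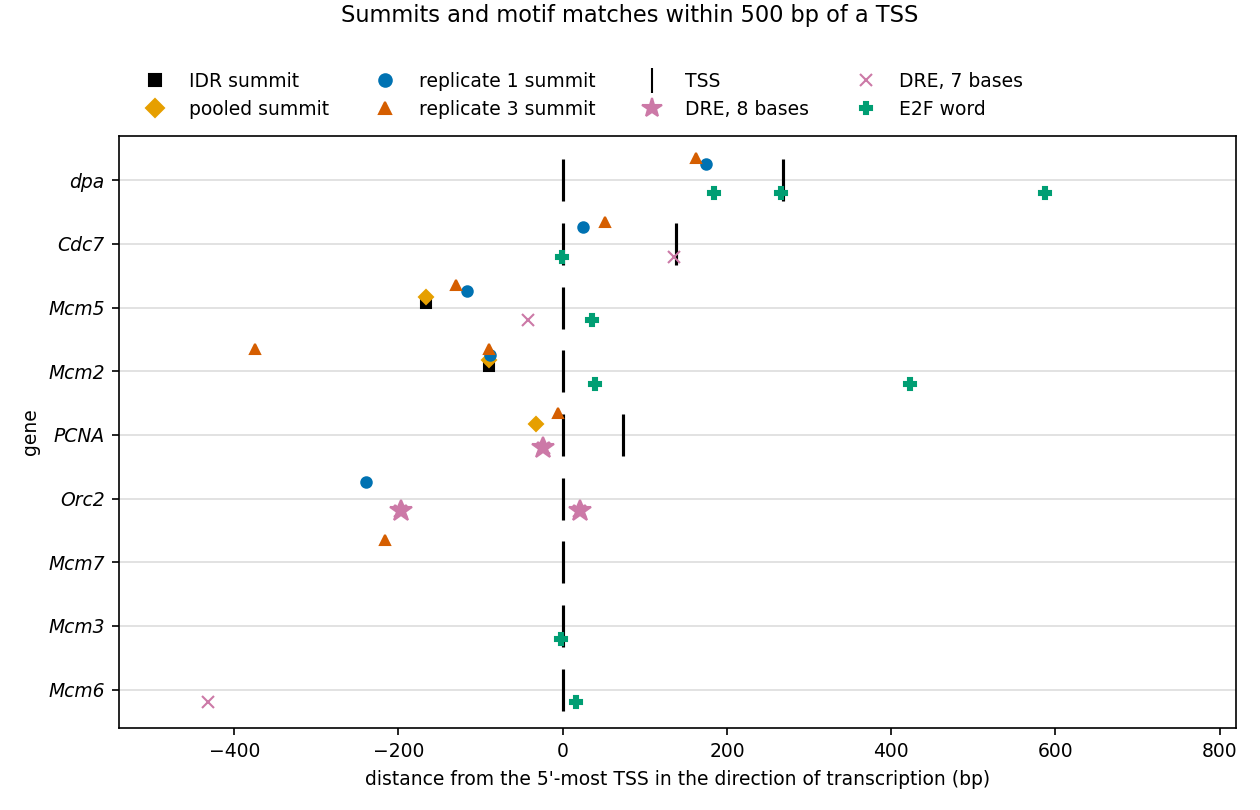
Summits of the 4 lists and matches of the full DRE (8 bases), the shortened DRE (7 bases) and the E2F words at each licensing gene, plotted by distance in bp from the outermost TSS in the direction of transcription (vertical bars mark every TSS). Summits of both replicates nearly coincide at dpa, Cdc7, Mcm5 and Mcm2, and an E2F word lies within 43 bp of a TSS in 6 genes.

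Counted over genes, 2 of the 9 were bound, meaning that an IDR summit lay no more than 500 bp from a TSS (22.2%), against 17 of 56 other replication genes (30.4%) and 18.1% of all protein-coding genes. Any pooled summit was present at 3 of 9, against 26 of 56 other replication genes and 39.5% of all genes. Any replicate 1 summit was present at 5 of 9, against 26 of 56 and 39% of all genes. Any replicate 3 summit was present at 6 of 9, against 25 of 56 and 44.2% of all genes. The IDR and pooled shares of the members are near the background and the replicate shares are above it by about 2 genes at most, and the choice of the genes with their peaks known leaves nothing to test. The median IDR rank was 1497 over the 2 bound members, 1363 over the other bound replication genes and 1374 over all 2526 bound genes. Of the 9 genes, 6 have 1 annotated TSS and 3 have 2. Of all 13945 genes, 10246 have 1, so genes with extra chances of a peak are not rarer among the members.

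**Figure D3:**
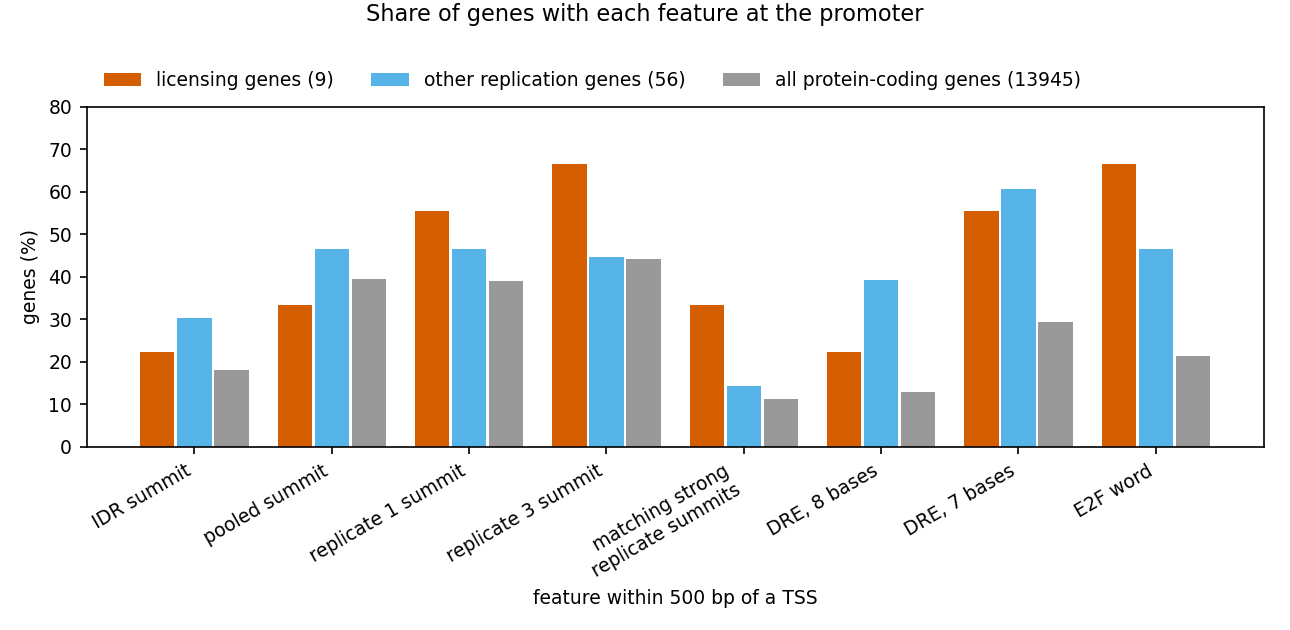
Percent of the 9 licensing genes, of 56 other replication genes and of all 13945 protein-coding genes (bars, from 0) with each feature within 500 bp of a TSS. IDR summits are at 22.2% of the licensing genes against 18.1% of all genes, and pooled summits at 33.3% against 39.5%. Matching strong replicate summits are at 33.3% against 11.1%, but the licensing genes were chosen with such peaks known, so nothing is read from that bar.

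Matching strong summits of the replicates, here 1 summit of each within 100 bp of each other and both among the 3607 strongest of their list, were found at dpa, Mcm5 and Cdc7, which is 3 of 9. They were found at 8 of 56 other replication genes and at 11.1% of all genes. dpa and Cdc7 had such a pair and no pooled summit within 500 bp, a combination held by 2 of the 9 members, 0 of the 56 other replication genes and 0.359% of all genes, or 50 genes. The members were picked with this combination in view, so nothing is read from the count. Of all 1553 genes with a matching strong pair, 3.22% lacked a pooled summit.

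Those 50 genes share 26 sites. By the sum of the replicate ranks the leading site was 1 promoter region on chromosome 3R counted for 10 pre-mod(mdg4) genes, with rank 95 in replicate 1 and 162 in replicate 3. Its genes pre-mod(mdg4)-AB, -AD, -AE, -C and -E have the smallest rank sum over the 2 replicate lists, 257, and they are a single site, not 5. The site of CG13016 and CG13018 was next, with ranks 273 in replicate 1 and 85 in replicate 3. The didum and dpa site came at place 3, with a rank sum of 484, and the Cdc7 and CG3226 site came at place 17, with a rank sum of 3314. The replicate 1 peak was narrower than the usual 400 bp at 5 of the 26 sites, dpa among them, and of usual width at Cdc7. The Dref promoter, which has a pooled summit, also had a narrow replicate 1 peak, 177 bp. Unusual widths are commoner among strong peaks, since 89.1% of the IDR list had its usual width against 98.7% of the pooled list. No such share was counted for strong replicate 1 peaks, so nothing is read from the 5 sites. The distance to the nearest pooled summit ran from 615 to 32544 bp over the sites, and was 1790 bp for dpa and 1717 bp for Cdc7. Whether the width of the peak or the nearness of another peak bears on the missing pooled summit was not tested.

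**Figure D4:**
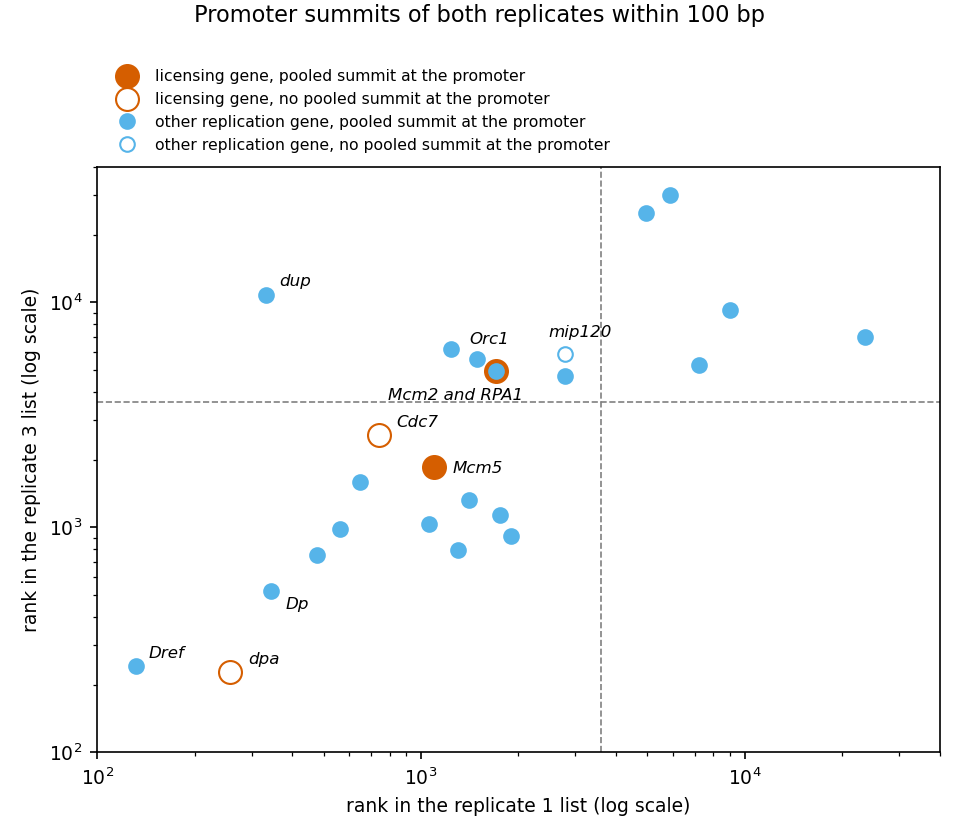
Rank in the replicate 1 list (horizontal) against rank in the replicate 3 list (vertical, both log scales) for each pair of promoter summits within 100 bp at a licensing gene (large orange symbols) or another replication gene (small blue symbols), open where the pooled list has no summit at the promoter. Dashed lines mark rank 3607. Mcm2 and RPA1 share 1 site, and dpa and Cdc7 are open symbols inside the square of strong pairs.

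PCNA and Orc2, 2 of 9, held the full DRE in the 500 bp on either side of a TSS, against 22 of 56 other replication genes (39.3%) and 13% of all genes. Neither gene had an IDR summit. In PCNA the DRE lies at positions -27 to -20 relative to the outer TSS, 9 bp from the weak pooled summit (distances of a word to a summit are from the middle of the word, rounded down). In Orc2, shown above, 1 DRE lies at -201 to -194, 42 bp from the replicate 1 summit, and another at +17 to +24 in the 5′ UTR. No DRE lay within 100 bp of the IDR summit of Mcm2 or Mcm5, and 6.72% of all 2217 IDR summits within 500 bp of a protein-coding TSS have one in that window.

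The shortened DRE was at 5 of 9 genes, Mcm5, Mcm6, Cdc7, PCNA and Orc2, against 34 of 56 other replication genes (60.7%) and 29.2% of all genes. The Mcm5 match lies at -45 to -39, between its IDR summit and its TSS and 74 bp from the replicate 1 summit. The Cdc7 match spans the inner TSS, at -5 to +1 with the TSS as position 0, 85 bp from the replicate 3 summit. In Mcm6 the match is at -435 to -429, in the 5′ UTR of its neighbour CG3198. From 250 bp before to 50 bp after the outermost TSS alone, the shortened DRE was at 3 of 9 members, 48.2% of other replication genes and 18.2% of all genes.

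E2F words were at 6 of 9 genes, against 26 of 56 other replication genes (46.4%) and 21.4% of all genes. In the same narrower window they were at 5 of 9 members, 32.1% of other replication genes and 6.46% of all genes. In each of these genes 1 word lay close to a start, at -6 to +1 in Mcm3, -4 to +3 in Cdc7, +13 to +20 in Mcm6, +32 to +39 in Mcm5, +36 to +43 in Mcm2, and, relative to the inner TSS, -6 to +1 in dpa. Further words lie in coding sequence at +316 to +323 in dpa and +419 to +426 in Mcm2. Another word in dpa at -87 to -80 lies 10 bp from the replicate 1 summit, and the Cdc7 word 25 bp from its replicate 1 summit. At Mcm2 and Mcm5 the nearest replicate 1 summits are 127 and 151 bp away from their words. dpa, Cdc7, Mcm5 and Mcm2, the genes with strong summits, all hold an E2F word. Mcm3 and Mcm6 hold one and have no summit, and Mcm7, PCNA and Orc2 hold none and have weak summits. Of all bound genes 28.5% hold one within 500 bp of a TSS. Of all 2217 IDR summits within 500 bp of a protein-coding TSS, 4.51% have one within 100 bp. The 9 genes were chosen with their peaks known, so no link between words and summits is read.

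AGGTCA, the core of nuclear receptor sites, was found in the same windows at Mcm6 and Orc2, 2 of 9, against 15 of 56 other replication genes (26.8%) and 27.6% of all genes. Both matches lie in coding sequence, at +285 to +290 in Mcm6 and +262 to +267 in Orc2, 504 bp from the Orc2 summit. In the narrower window it was at 0 of 9 members, 5.36% of other replication genes and 5.89% of all genes. No AGGTCA lay at the promoters of dpa, Cdc7, Mcm5 and Mcm2, the genes with strong summits. Of all bound genes 28.5% hold it within 500 bp of a TSS. Of all 2217 IDR summits within 500 bp of a protein-coding TSS, 3.25% have it within 100 bp. Its absence at these few genes is therefore not read as a trait of them. Mcm7 held none of the words, and its promoter was 25.6% GC from 250 bp before to 50 bp after the TSS, against a median of 34.6% over the 9 genes and 37.9% over all genes. A word is a match of letters and not a bound site, and its absence says only that the letters are not in the window.

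The other 56 replication genes were listed by role. Of all genes 18.1% were bound and 13% held a full DRE, and each role has few genes, so no difference from these shares is read. Of 9 further origin and licensing genes, dup and Orc1 were bound. dup, the fly Cdt1 that loads the MCM ring, had a summit 107 bp before a TSS with a signal of 240.1 and rank 530. That summit is 3 bp from a TSS of SRPK, so it cannot be assigned to dup alone. The ranks at dup differed widely between replicates, at 333 in replicate 1 and 10808 in replicate 3. Orc1, another origin recognition subunit, had a signal of 97.7 and rank 1919, close to Mcm2, with ranks 1493 in replicate 1 and 5615 in replicate 3. Cdc6, which loads MCM with dup, had no summit within 500 bp in any list. Of these 9 genes 3 held a full DRE.

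Of 10 genes of helicase activation 3 were bound, named because they are few: Ctf4, Psf1 and chif, the partner of the Cdc7 kinase. Ctf4, which links the helicase to DNA polymerase alpha, had a signal of 270.5 and rank 430 in the IDR list and rank 300 in replicate 3, while the nearest replicate 1 summit was 25370 bp from its TSS. As at the intronic Cdc7 site, the IDR peak had a summit nearby in replicate 3 and none in replicate 1. The IDR summit of Ctf4 is 63 bp from its own TSS and 15 bp from a TSS of CG8067. Of 11 DNA polymerase genes Prim1 and PolD2 were bound. Prim1, the catalytic primase subunit, had a signal of 167.4 and rank 926, with replicate ranks of 1059 and 1034. The IDR summit of Prim1 is 346 bp from its own TSS and 125 bp from a TSS of CG7083. None of 5 clamp loader genes was bound, against 18.1% of all genes, and with 5 genes nothing is read from this. Gnf1 and RfC38 among them had pooled promoter summits outside the IDR list, at ranks 6632 and 4362. Of 5 genes of single-strand binding and the lagging strand RPA1 was bound, through the peak it shares with Mcm2. Of 4 genes of nucleotide supply RnrS, the small ribonucleotide reductase subunit, was bound with a signal of 131.0 and rank 1299.

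The regulators of S phase entry were bound at 8 of 12, against 18.1% of all genes. Matching strong replicate summits were at 5 of the 12, against 11.1% of all genes. The roles differ in size, and this one is described with its count already seen. A gene with several TSSs, such as Dp, had more chances of a call. With the outermost TSS alone, 14 of the 56 other replication genes were bound, against 17 with any TSS and 16% of all genes. The strongest IDR summits at Dref, Rbf2 and mip130 lie nearer a TSS of a neighbour than their own. Dref, the gene of the DRE-binding factor itself, had a signal of 454.3 and rank 140, with rank 132 in replicate 1 and 241 in replicate 3, and this summit is 25 bp from a TSS of the ribosomal protein gene RpL13. Dp, the partner of E2F, had its strongest of 3 IDR summits in an intron 205 bp before a TSS, with a signal of 280.0 and rank 396. Rbf2, a retinoblastoma protein that restrains E2F, had a signal of 238.1 and rank 537, in the 5′ UTR of CG32856. mip130, a subunit of the Myb and E2F complex dREAM, had a signal of 187.5 and rank 790, at a summit inside Edem1. E2f1 had a signal of 126.8 and rank 1363, and rank 913 in replicate 3. In the IDR list Mcm5, at rank 1099, stood between mip130 and E2f1, and Mcm2, at rank 1895, below both. Among the licensing and other replication genes, dpa, at rank 257 in replicate 1 and 227 in replicate 3, stood next to Dref, as the plot of replicate ranks shows. Over all protein-coding genes they were further apart in replicate 1, where 146 genes had a stronger summit than Dref and 279 a stronger one than dpa.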

How the data were processed

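The members, the other replication genes, the motifs and the call rules were chosen with earlier results of these data known. Signal and −log10 q-values are those of the deposited peak lists, recognised from the narrowPeak column order, and the summit is the deposited offset from the peak start. Per the deposited text lists, the replicates share 1 control, their alignments were joined for the pooled list, and the other 3 lists gave the IDR list. The caller, the IDR threshold and the depth were not given in the sources used here. No log scale was applied.

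Peaks were ranked by signal within each list. Gene models were from Ensembl release 115 (BDGP6, the dm6 assembly) and sequence from RefSeq, after all peak ends were checked to lie within its chromosome lengths. A gene was called where a summit lay within 500 bp of any TSS. Each of the 65 listed genes was found, 7 through an older name. Named genes are all members, the 8 other replication genes with the strongest IDR summit, Dref, E2f1, Orc1, Cdc6 and dup, neighbours sharing a summit, and the 5 genes with the smallest replicate rank sum among those with a matching pair and no pooled summit; other names were added where a count was small or a nearest summit needed its gene, after their values were seen. With 1 group no test was made. The counting was tested on simulated peaks and words. Alternatives varied the window, matching distance, lists, TSS choice and word, and left out each replicate by using the 3607 strongest summits of the other. The dm3 lists were not used here. Scripts ran in Python 3.11.15 with pandas 2.3.3, numpy 2.4.6 and matplotlib 3.10.9.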

Additional observations from a re-analysis of the deposited data

How the results depend on the processing

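The counts moved mainly with the list. With 1 replicate left out in turn, members bound were 4 and 4 (dpa, Cdc7, Mcm2 and Mcm5), against 2 with both, while the share of all bound genes was 18.4% without replicate 1 and 18.6% without replicate 3. In the stronger 1803 IDR peaks 1 member (Mcm5) and 11 other replication genes were bound, against 11.3% of all genes. With the whole pooled list 3 members and 26 other replication genes were, against 39.5% of all genes. With the 1000 strongest summits of each replicate, 1 member (dpa) had a matching pair, against 4.39% of all genes. Also 1 member (dpa) had a matching pair without a pooled summit, against 0.165% of all genes. The full DRE was at 0 members within 100 bp of a promoter IDR summit, against 1.62% of all genes, and only the 2 members with such a summit could count. The shortened DRE was at 5 members within 500 bp of a TSS, against 29.2% of all genes. Windows of 250 and 1000 bp around the TSS kept the member counts for IDR summits, matching pairs and pairs without a pooled summit. Matching distances of 50 and 200 bp kept the last pair of counts, and the outermost TSS alone kept those for IDR summits and the full DRE. The causes were not tested. Read depth, unknown here, limits what an absent summit means, and a list of fixed length can leave out weak sites. No paired analysis was possible because the samples form 1 group.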
